A study of Mus musculus with 30 samples.

Results

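Extracellular matrix, integrin and annexin genes were examined in 2 brain regions, cerebral cortex and hippocampus, from mice lacking cyclooxygenase (COX)-1 or COX-2. A gene was a member when its symbol named a collagen chain (Col), a laminin chain (Lam), an integrin chain (Itga or Itgb), a tissue inhibitor of metalloproteinases (Timp), a matrix metalloproteinase (Mmp), an Adam or Adamts protease, an annexin (Anxa), or fibronectin (Fn1), Sparc, Ecm1, a fibulin, a fibrillin, a lysyl oxidase or a thrombospondin. The rule used symbols only and found 67 genes on 98 probes, out of 7151 genes on the 9663 probes that carry 1 symbol. Another 436 probes carry several symbols and 6797 carry none, so other members may lie among them.

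Radiolabelled cDNA of total RNA was hybridised to nylon cDNA arrays, 30 arrays in 10 groups of 3. All mice were 12 weeks old, had no drug treatment named in the labels, and were of a mixed genetic background. The COX-1 line supplied COX-1+/+ and COX-1-/- mice, and the COX-2 line supplied COX-2+/+, COX-2+/- and COX-2-/- mice, with cortex and hippocampus taken from each genotype. The deletions are present in every cell, and the lines were kept as separate colonies with their own wild-type breeders, so the COX-1+/+ and COX-2+/+ mice differ by colony and not by a COX genotype. The methods speak of separate mice in a group and also of triplicates of a sample, and the labels do not say which of these the arrays are. The p-values then cover the variation among arrays, which may be technical in part. Values are the deposited Z scores: the natural log intensity of a probe minus the array mean, divided by the array SD. A difference in Z is therefore not a fold change, and levels are compared between groups for the same gene and not between genes. A mean Z of 0 was the limit below which the study took a probe as background.

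The probe table has 2 parts of equal size. Values of the first part are identical on 5 of the 6 arrays of COX-1 cortex, so none of them was used for that region, and comparisons with COX-1 cortex rest on the 47 members that have a probe in the second part. Arrays of a group correlated with r from 0.984 to 0.993 across the probes of this second part. Where groups are said not to overlap, the values are described only. The share of all features without overlap was not computed, and an exact permutation test of 3 against 3 arrays cannot give a p below 0.1. In bulk RNA, fewer cells of a type and less RNA per cell cannot be told apart. Of the markers listed for cell types, 3 of 10 for endothelium, 2 of 8 for mural cells, 6 of 10 for meningeal fibroblasts, 4 of 10 for microglia, 3 of 8 for astrocytes and 0 of 8 for oligodendrocytes were found by symbol. Of the markers that tell the regions apart, 1 of 9 for cortex and 2 of 8 for hippocampus were found, all with a mean Z below 0, so the labelled region could not be checked from them.

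The extracellular matrix of the brain differs from place to place. Basement membranes around vessels and under the pia are sheets of collagen IV, laminins, nidogen and perlecan, made by endothelial cells, pericytes, fibroblasts and astrocytes, whereas the space between neurons and glia holds proteoglycans and hyaluronan with little fibrillar collagen. Integrins are receptors of an alpha and a beta chain that bind matrix outside the cell and the cytoskeleton inside it. Metalloproteinases, Adam and Adamts proteases cut matrix and cell surface proteins, Timps inhibit them, and annexins are intracellular proteins that bind membrane phospholipid when calcium rises.

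Of the 67 members, 34 had a mean Z above 0 over the 18 COX-2 arrays, and 48 rest on 1 probe. Collagens were the main group, with 12 of 20 genes above 0. Integrin alpha chains had 4 of 5 above 0, integrin beta chains 3 of 4, laminins 2 of 5, other matrix proteins 5 of 7, Mmp 2 of 4, Timp 1 of 3, Adamts 3 of 6 and Adam 1 of 5. Of the 8 annexins only Anxa2 lay above 0. Members with several probes above 0 often had probes that disagreed: in the COX-2-/- hippocampus the probes differed from wild type in the same direction in 2 of 7 such genes, and between the wild-type hippocampi in 4 of 7.

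The gene pair Col4a1 and Col4a2, which encode the chains of the common collagen IV of vessel basement membranes, is shown here by its shared promoter. The pair was picked because Col4a2 was called between the wild-type hippocampi (below). Col4a2 passed the limit on mean Z through the COX-1 arrays, and its call was lost in all 6 fits that left out 1 array. Col4a1 was not called, and the difference between the genes was not tested. In RefSeq (GRCm38.p6), where 45 of the 67 members have a promoter entry, the pair lies head to head on mouse chromosome 8. The start sites used in the promoter entries are 21 bases apart. The windows of 250 bases before to 50 bases after each start overlap over 78 bases. The Col4a1 gene span reaches further, to base 11312889, so the spacing depends on the start site taken. Capitals mark the 78 bases that both windows hold, read from opposite strands. Col4a1 is on the minus strand (chr8:11312777-11313076) and Col4a2 on the plus strand (chr8:11312555-11312854).
Col4a1: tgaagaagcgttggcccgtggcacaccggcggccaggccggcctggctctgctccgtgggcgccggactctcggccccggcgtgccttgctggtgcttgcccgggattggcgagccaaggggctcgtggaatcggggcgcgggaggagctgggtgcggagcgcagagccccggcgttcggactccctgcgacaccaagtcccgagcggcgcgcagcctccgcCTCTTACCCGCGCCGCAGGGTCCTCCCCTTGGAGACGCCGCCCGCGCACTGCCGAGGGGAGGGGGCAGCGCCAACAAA
Col4a2: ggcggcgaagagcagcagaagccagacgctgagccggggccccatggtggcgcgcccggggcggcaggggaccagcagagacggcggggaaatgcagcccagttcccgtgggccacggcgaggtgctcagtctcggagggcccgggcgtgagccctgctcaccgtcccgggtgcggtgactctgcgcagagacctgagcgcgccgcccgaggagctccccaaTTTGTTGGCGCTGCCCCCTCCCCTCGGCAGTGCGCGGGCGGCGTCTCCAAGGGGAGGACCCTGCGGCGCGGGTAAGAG
The GC box GGGCGG, searched on both strands, occurs 1 time in the Col4a1 window and 3 times in the Col4a2 window, and 35.7% of 32851 mouse promoter windows hold it at least 1 time. The letters CCAAT, also on both strands, occur 1 time in each window and in 37.4% of all windows. A match is a description of the letters and not of a bound site.

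**Figure D1:**
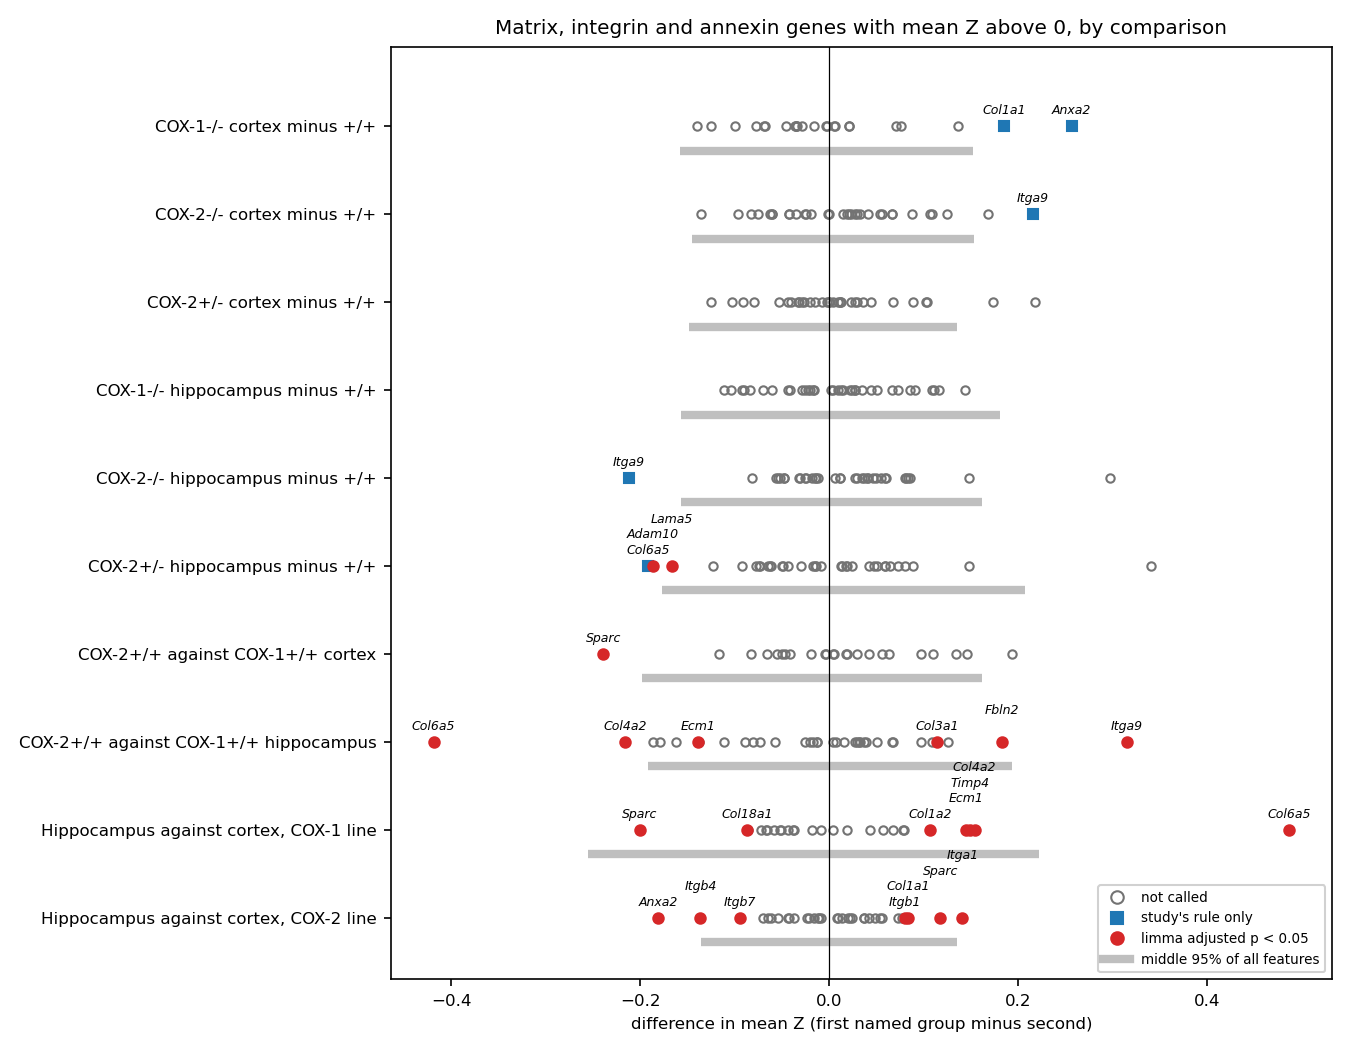
Difference in mean Z of each member tested (points), for the 6 comparisons with wild type, the 2 comparisons between wild-type groups and the 2 between regions. Filled red circles were called by limma (adjusted p under 0.05), filled blue squares by the study's rule only, and grey bars span the middle 95% of differences over all features; the genes furthest out are Col6a5 between the wild-type hippocampi and between the regions of the COX-1 line, at -0.419 and 0.487, and Col5a3 in the COX-2+/- hippocampus, at 0.341, was not called.

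COX-1-/- cortex was compared with COX-1+/+ cortex to ask what differs without COX-1. By the study's methods, null mice of each line had null fathers and heterozygous mothers, and wild-type mice had wild-type parents. Genotype and parentage therefore cannot be told apart in the comparisons of null with wild-type mice. Anxa2 and Col1a1 were higher in COX-1-/- by the study's rule, which asks for a mean Z above 0, a Z test P under 0.05 and a z ratio (the difference divided by the SD of all differences) beyond 1.5. The formula in the methods names the SD of the genes on an array as divisor, which is 1 for Z scores. With a divisor of 1 the rule called 0 members in each of the 6 comparisons with wild type, so every member called by this rule rests on the divisor chosen here. The study itself printed z ratios beyond 1.5. For Slc6a13 in COX-2-/- cortex it gave 1.68, close to the value found here with the SD of all differences (below). Anxa2, which forms a complex with S100a10 and binds tissue plasminogen activator, had Z scores of 1.24, 1.09 and 0.873 in COX-1+/+ and 1.25, 1.27 and 1.46 in COX-1-/- cortex. The groups did not overlap, although the highest wild-type and the lowest null array nearly met. The means were 1.07 ± 0.183 and 1.32 ± 0.115 (SD, n = 3 each), a z ratio of 2.32. Col1a1, a chain of fibrillar collagen I, had Z scores of 0.223, 0.462 and 0.374 in COX-1+/+ and 0.557, 0.540 and 0.519 in COX-1-/- cortex, again without overlap. Its z ratio was 1.68. Over all features the rule called 2.63%, against these 2 of 25 members. By limma the differences were 0.257 ± 0.0691 (SE) for Anxa2 and 0.185 ± 0.0529 for Col1a1, with Benjamini-Hochberg adjusted p of 0.0768 and 0.0937. limma called 0 of 24 members, 4 of them at an unadjusted p under 0.05, and 0.609% of all features. Both calls depended on single arrays: the z ratio of Anxa2 was 1.31 without COX-1+/+ replicate 3 and that of Col1a1 was 0.979 without COX-1+/+ replicate 1, and Anxa2 was also not called without COX-1+/+ replicate 2 (2.26) or COX-1-/- replicates 2 (2.27) or 3 (1.69). Col1a1 was not called without COX-1+/+ replicate 3 (1.60) or COX-1-/- replicate 2 (1.47). Fcer1g, 1 of 4 microglial markers found, was lower by the study's rule in COX-1-/- cortex, with a mean of 0.118 against 0.514 (difference -0.396, z ratio -3.58, limma adjusted p = 0.0768). C1qb and C1qc, the other microglial markers tested, differed by -0.0285 and 0.0273 and were not called. Their part in the result was not tested.

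Lower in COX-1-/- cortex, but not called, were Itgb7, a beta chain of leukocyte integrins, by -0.140 ± 0.0473 (adjusted p = 0.138), and Sparc, a matricellular protein that binds collagen, by -0.125 ± 0.0641 (adjusted p = 0.318). Ecm1, a secreted glycoprotein that binds perlecan and Mmp9, had values of 0.449, 0.513 and 0.483 in COX-1+/+ and 0.663, 0.615 and 0.575 in COX-1-/- cortex. Its groups did not overlap. The gene was picked after its values were seen, and its difference was 0.136 ± 0.0393 (adjusted p = 0.0939).

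In the COX-2-/- cortex the member called was Itga9, the alpha chain of the receptor for tenascin-C and osteopontin. Its values were 0.414, 0.206 and 0.075 in COX-2+/+ and 0.529, 0.369 and 0.445 in COX-2-/- cortex. The wild-type arrays were spread widely and 1 of them lay within the null range. Means were 0.232 ± 0.171 and 0.448 ± 0.0798 (SD, n = 3 each), with a z ratio of 2.15. The study's rule called 1 of 34 members, against 4% of all features. limma called 0 of 33 members and 0% of all 6833 features, with 4 members at an unadjusted p under 0.05 and an adjusted p of 0.285 for Itga9. The Itga9 call was lost with the arrays centred on their medians, with row order corrected, with the Z test P adjusted, with a mean Z above 0.5 asked for, and without COX-2+/+ replicates 2 (1.83) or 3 (1.30) or COX-2-/- replicates 1 (1.53) or 3 (2.13). Col6a5, a chain of collagen VI, was higher by 0.168 ± 0.104 (adjusted p = 0.542), with overlapping groups. Itga1, the alpha chain of a collagen receptor, was lower by -0.136 ± 0.0637 (adjusted p = 0.421), and Col2a1, the chain of collagen II, by -0.0969 ± 0.0431 (adjusted p = 0.408). Ecm1 was higher again, with 0.492, 0.454 and 0.515 in COX-2+/+ and 0.566, 0.670 and 0.600 in COX-2-/- cortex. Its groups did not overlap, and its difference of 0.125 ± 0.0411 had an adjusted p of 0.262. Slc6a13 of meningeal fibroblasts, 1 of 6 such markers found and 4 tested, was higher by the study's rule, with a mean of 2.12 against 1.95 (difference 0.170, z ratio 1.70). Igf2, Slc13a4 and Aldh1a2 differed by -0.0147, 0.0705 and -0.0352 and were not called. The part of these cells in the result was not tested.

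COX-2+/- cortex had 0 members called. The study's rule called 0 of 34 members, against 3.17% of all features, and limma called 0 of 33, with 2 at an unadjusted p under 0.05, and 0% of all features. Col6a5 and Col5a3 had the highest differences, 0.218 ± 0.104 and 0.173 ± 0.0740 (adjusted p = 0.521 and 0.473), and Mmp2, the gelatinase A, and Adam10 the lowest, -0.125 ± 0.0629 and -0.103 ± 0.0551 (adjusted p = 0.546 and 0.572). Taken by probe, 1 of the 4 Sparc probes was lower by the study's rule, by -0.229 (z ratio -2.14), whereas the other three differed by 0.00837 to 0.0732. Slc6a13 was higher here too by the study's rule, with a mean of 2.16 (difference 0.212, z ratio 2.03), while Igf2, Slc13a4 and Aldh1a2 differed by 0.0467, 0.0280 and 0.0155 and were not called. Their part was not tested.

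In the COX-1-/- hippocampus 0 members were called. The study's rule called 0 of 36, against 4.81% of all features, and limma 0 of 35, with 5 at an unadjusted p under 0.05, against 2%. The smallest adjusted p was that of Itgb7, 0.0560, with values of 0.521, 0.515 and 0.491 in COX-1+/+ and 0.690, 0.684 and 0.582 in COX-1-/- hippocampus. All 3 null arrays lay above all 3 wild-type arrays, and the difference was 0.143 ± 0.0371. Fbln2, a fibulin of basement membranes and elastic fibres, differed by 0.117 ± 0.0430 (adjusted p = 0.159). The lowest differences were those of Col4a2, -0.112 ± 0.0630, and Col6a1, -0.104 ± 0.0737 (adjusted p = 0.376 and 0.499), each with overlapping groups.

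In the COX-2-/- hippocampus Itga9 was lower by the study's rule, the reverse of the cortex. The COX-2+/+ hippocampus had 0.471, 0.454 and 0.458 and the COX-2-/- hippocampus 0.340, 0.289 and 0.117. Every null array lay below every wild-type array. Means were 0.461 ± 0.00890 and 0.249 ± 0.117 (SD, n = 3 each), with a z ratio of -2.06, which was -1.42 and not called without COX-2-/- replicate 3. With COX-1+/+ arrays added to the control group the z ratio was -0.475 and not called. The rule called 1 of 34 members, against 3.75% of all features. limma called 0 of 35 members, 5 of them at an unadjusted p under 0.05, and 0% of all features, with an adjusted p of 0.197 for Itga9. Col5a3, a chain of collagen V, was higher by 0.298 ± 0.113 (adjusted p = 0.258), with wild-type values of 0.850, 1.40 and 1.42 against 1.60, 1.5 and 1.46 in the null group. The groups did not overlap, and 1 wild-type array lay far below the rest. Itga5, the alpha chain of the fibronectin receptor, was higher by 0.148 ± 0.0479 (adjusted p = 0.210), with 0.274, 0.284 and 0.328 in COX-2+/+ and 0.370, 0.403 and 0.556 in COX-2-/- hippocampus. Ecm1 was lower by -0.0812 ± 0.0399 (adjusted p = 0.362), with 0.574, 0.605 and 0.628 against 0.520, 0.483 and 0.560.

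In the COX-2+/- hippocampus Adam10 and Lama5 were lower than wild type by limma, and Adam10 and Col6a5 lower by the study's rule. Adam10, the sheddase that cuts the amyloid precursor protein and Notch, had 1.93, 2.06 and 2.08 in COX-2+/+ and 1.77, 1.86 and 1.88 in COX-2+/- hippocampus. The groups did not overlap. The difference was -0.186 ± 0.0508 (adjusted p = 0.0466) and the z ratio -1.60. Lama5, the alpha chain of the vascular laminins, had 0.541, 0.630 and 0.551 against 0.392, 0.430 and 0.401, without overlap, and differed by -0.167 ± 0.0441 (adjusted p = 0.0414). Its 2 probes fell to a similar extent, by -0.186 and -0.147, and limma called neither on its own (adjusted p = 0.124 and 0.140). Col6a5 had 0.141, 0.403 and 0.126 in COX-2+/+ and -0.0159, 0.0562 and 0.0549 in COX-2+/- hippocampus. Its heterozygous arrays lay at the limit of background, and its z ratio was -1.65. limma called 2 of 35 members, against 4.54% of all features, and the study's rule 2 of 34, against 6.28%.

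These calls lie near their thresholds. By limma, Lama5 was not called in any fit that left out 1 array of the compared groups (differences -0.183 to -0.138), nor was Adam10 in 5 of 6 such fits, all but that without COX-2+/+ replicate 1, with differences of -0.207 to -0.152 in those 5. By the study's rule, Col6a5 was not called without any of the 3 COX-2+/+ arrays (z ratios -1.88, -0.855 and -1.90) or without COX-2+/- replicate 1 (-1.39), and Adam10 not without COX-2+/+ replicates 2 (-1.40) or 3 (-1.26) or COX-2+/- replicate 1 (-1.26). The highest differences were those of Col5a3, 0.341 ± 0.113, and Itga5, 0.148 ± 0.0479 (adjusted p = 0.0912 and 0.0860). For Itga5 the heterozygous values were 0.446, 0.413 and 0.471, above all 3 wild-type arrays, which also serve as the control of the null group. Of the 3 probes of Lamc1, the gamma chain of most laminins, 1 was lower by -0.241 (adjusted p = 0.0212), and the others differed by -0.0319 and 0.0538, so the gene as a whole was not called.

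**Figure D2:**
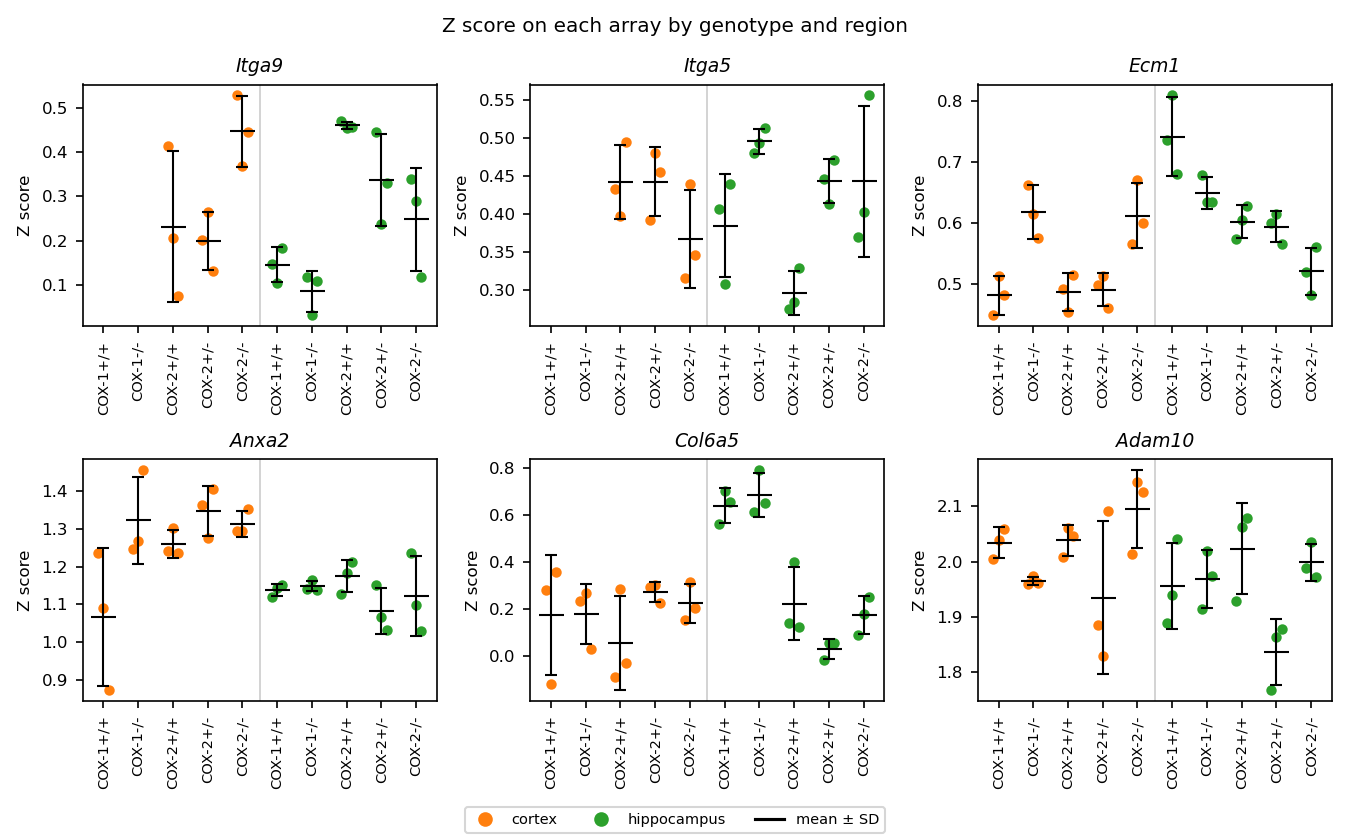
Z score of 6 members on each array (points), by genotype and region, with the mean and SD of the 3 arrays (black bars). Itga9 and Itga5 have only probes of the first part and so show no COX-1 cortex values; Itga9 rises from wild type to COX-2-/- in cortex (0.232 to 0.448) and falls in hippocampus (0.461 to 0.249), and Col6a5 is 0.562 to 0.793 on the COX-1 hippocampus arrays and lower on all arrays of the other groups.

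Whether the effect of a genotype differed between the regions was tested directly. The difference between the COX-2-/- effects in hippocampus and cortex was -0.428 ± 0.104 for Itga9 (adjusted p = 0.0370) and -0.206 ± 0.0520 for Ecm1 (adjusted p = 0.0416), which were the 2 of 34 members that limma called, against 3.01% of all features. For both genes the null mice were higher than wild type in cortex and lower in hippocampus. Itga5 moved the opposite way, 0.223 ± 0.0672, with an adjusted p of 0.0682. Each call was lost in 8 of the 12 fits without 1 array. Itga9 was kept without COX-2+/+ cortex replicate 1, COX-2-/- cortex replicate 2 and COX-2-/- hippocampus replicates 1 and 2, and the lost values were -0.432 to -0.350. Ecm1 was kept without COX-2-/- cortex replicate 1, COX-2+/+ hippocampus replicate 1 and COX-2-/- hippocampus replicates 1 and 3, and its lost values were -0.220 to -0.177.

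The same test was added for the other genotypes after their values had been seen. In the COX-1 line Itgb7 was the member called, 1 of 26 against 0.687% of all features, with a difference of 0.284 ± 0.0639 (adjusted p = 0.0495): lower in COX-1-/- cortex, with 0.710, 0.626 and 0.748 in wild type and 0.539, 0.523 and 0.601 in null, and higher in COX-1-/- hippocampus. In neither region did the groups overlap. The call was lost in 9 of the 12 fits without 1 array, and kept without COX-1+/+ cortex replicate 2, COX-1-/- cortex replicate 3 or COX-1-/- hippocampus replicate 3. The values where it was lost were 0.257 to 0.290. Ecm1 had -0.228 ± 0.0617 (adjusted p = 0.106) in the COX-1 line, the same sign as in the COX-2 line. For COX-2+/- the member called was Col6a5, 1 of 34 against 5.36% of all features, at -0.409 ± 0.115 (adjusted p = 0.0418). It was lost in 9 of 12 fits without 1 array, with values of -0.434 to -0.320 there, and kept without COX-2+/+ cortex replicate 2 or COX-2+/+ hippocampus replicates 1 or 3. Slc6a13 of meningeal fibroblasts was called in the same test, at -0.337 (adjusted p = 0.00541), and the 3 other meningeal markers tested, Igf2, Slc13a4 and Aldh1a2, had -0.0885, -0.144 and -0.0666 and were not called. Their part was not tested. The null effects of the 2 lines in the hippocampus were also compared. limma called 0 of 35 members and 0% of all features, and 0 members had an unadjusted p under 0.05. Itga9 had -0.152 ± 0.0804 (adjusted p = 0.598).

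The wild-type groups of the lines, which carry no COX deletion, were then compared with each other. The labels name no hybridisation batch, so in all comparisons between the lines colony and array batch cannot be told apart. In hippocampus limma called 6 of 35 members, against 7.53% of all features, 3 higher and 3 lower in COX-2+/+ than in COX-1+/+. Col6a5 had 0.562, 0.705 and 0.659 in COX-1+/+ and 0.141, 0.403 and 0.126 in COX-2+/+ hippocampus. The groups were well apart, and the difference was -0.419 ± 0.0686 (adjusted p = 0.00507). Itga9 ran the other way, with 0.148, 0.104 and 0.184 in COX-1+/+ and 0.471, 0.454 and 0.458 in COX-2+/+ hippocampus, a difference of 0.316 ± 0.0569 (adjusted p = 0.00757). Against the same COX-2+/+ arrays the COX-2-/- hippocampus differed by -0.212, and its mean of 0.249 lay between the wild-type groups. Both calls held in all 6 fits without 1 array.

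The other called members were Fbln2, higher by 0.183 ± 0.0430 (adjusted p = 0.0203), Col3a1, a fibrillar collagen chain of vessel walls, higher by 0.114 ± 0.0336 (adjusted p = 0.0477), Ecm1, lower by -0.139 ± 0.0399 (adjusted p = 0.0434), and Col4a2, lower by -0.216 ± 0.0630 (adjusted p = 0.0464). None of these groups overlapped. Col3a1, like the chains named with it below, was picked after its values were seen. Col3a1 and Col4a2 were not called in any of the 6 fits that left out 1 array (differences 0.107 to 0.12 and -0.247 to -0.182). Ecm1 was called only without COX-1+/+ replicate 3, with differences of -0.152 to -0.105 in the other 5 fits, and Fbln2 was lost without COX-1+/+ replicate 1 (0.154) or COX-2+/+ replicates 1 (0.168) or 2 (0.179). Markers of other cells moved here: Pdgfrb of mural cells was higher in COX-2+/+ by 0.135 (adjusted p = 0.0477) and Snap25 of neurons by 0.270 (adjusted p = 0.0373). The other marker found of each list, Acta2 and Nefl, differed by 0.0309 and 0.0201 and was not called. Their part in the result was not tested.

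Col4a2 was the called member among the chains of collagen IV and collagen I between the wild-type hippocampi. It passed the filter on low values through the COX-1 arrays, with a mean Z of 0.0571 over the 15 hippocampus arrays but -0.0242 over the 18 COX-2 arrays, so its values in COX-2+/+ lie near the limit of background. Col4a2 had 0.171, 0.302 and 0.226 in COX-1+/+ and 0.0568, 0.0217 and -0.0284 in COX-2+/+. Col4a1, which shares its promoter region, had 0.986, 0.997 and 1.05 in COX-1+/+ and 1.09, 1.10 and 1.13 in COX-2+/+, a difference of 0.0969 ± 0.0373 (adjusted p = 0.117). Of its 2 probes 1 was called alone, 0.155 (adjusted p = 0.0213), and the other differed by 0.0391. The groups of each gene were apart, Col4a1 was not called, and the difference between the genes was not tested. For collagen I, Col1a1 was 0.109 ± 0.0404 higher in COX-2+/+ (adjusted p = 0.104), with 0.554, 0.517 and 0.467 against 0.623, 0.593 and 0.648. Col1a2 had 0.518, 0.528 and 0.467 in COX-1+/+ and 0.345, 0.324 and 0.358 in COX-2+/+, a difference of -0.162 (adjusted p = 0.0528). Its 2 probes disagreed: the probe below background differed by -0.354 and the other, with a mean Z of 1.01, by 0.0294.

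**Figure D3:**
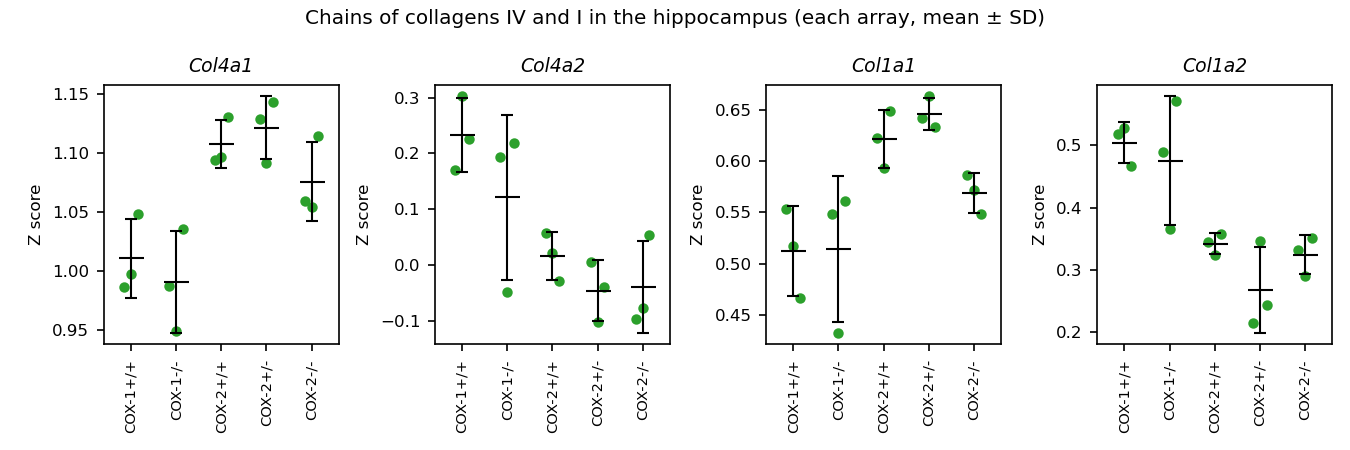
Z score of collagen IV chains (Col4a1, Col4a2) and collagen I chains (Col1a1, Col1a2) on each hippocampus array (points), with the mean and SD of 3 arrays (black bars), by genotype. Between COX-2+/+ and COX-1+/+ mice Col4a2 was called by limma (-0.216), with COX-2+/+ values near the limit of background; Col4a1 (0.0969), Col1a1 (0.109) and Col1a2 (-0.162, from its probe below background) were not called.

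In cortex the wild-type groups differed in 1 of 24 members by limma, against 4.37% of all features. Sparc, by its probe in the second part, had 1.47, 1.45 and 1.51 in COX-1+/+ and 1.17, 1.30 and 1.24 in COX-2+/+ cortex. The groups were apart, and the difference was -0.239 ± 0.0641 (adjusted p = 0.0401), but the call was lost in all 6 fits without 1 array (-0.269 to -0.208) and with the arrays centred on their medians. Anxa2 was next, 0.194 ± 0.0691 higher in COX-2+/+ (adjusted p = 0.136), followed by Col6a1 at 0.146 and Col1a1 at 0.134 (adjusted p = 0.160 and 0.168). Fcer1g of microglia was lower in COX-2+/+ cortex by -0.573 (adjusted p = 0.00653), and the other microglial markers tested, C1qb and C1qc, differed by -0.0860 and -0.0604 (adjusted p = 0.293 and 0.348). The COX-2+/+ mean of Fcer1g lay below 0, so it passed the filter on mean Z through other cortex groups. Of 3 meningeal markers tested, Slc6a13 was lower by -0.182 (adjusted p = 0.0496), and Igf2 and Aldh1a2 differed by 0.0456 and 0.0644 (adjusted p = 0.545 and 0.381). Their part in the result was not tested.

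Hippocampus and cortex were compared within each line over all genotypes. In the COX-2 line limma called 7 of 34 members, 4 higher and 3 lower in hippocampus, against 14.9% of all features. Anxa2 was lower, with 1.03, 1.13 and 1.24 as the lowest, median and highest of 9 hippocampus arrays and 1.24, 1.29 and 1.41 of 9 cortex arrays. The ranges overlapped slightly, near 1.24, and the difference was -0.181 ± 0.0289 (adjusted p = 0.000541). Sparc was higher, with 0.963, 1.01 and 1.13 in hippocampus and 0.834, 0.887 and 0.990 in cortex, by 0.118 ± 0.0255 (adjusted p = 0.00470). All 4 Sparc probes were higher, by 0.0584 to 0.172. Integrin chains differed in both directions. Itgb4, the partner of alpha 6 in hemidesmosomes, had 0.180, 0.309 and 0.461 in hippocampus and 0.346, 0.409 and 0.583 in cortex, a difference of -0.136 ± 0.0323 (adjusted p = 0.00834), and Itgb7 was lower by -0.0948 ± 0.0241 (adjusted p = 0.0130). Itga1 was higher by 0.141 ± 0.0393 (adjusted p = 0.0211), with 0.440, 0.585 and 0.683 against 0.211, 0.451 and 0.580. Itgb1, the beta chain that pairs with it, was higher by 0.0805 ± 0.0255 (adjusted p = 0.0388). Col1a1 was higher by 0.0835 ± 0.0237 (adjusted p = 0.0231), in 2 of the 3 genotypes, since the COX-2-/- means were 0.569 in hippocampus and 0.575 in cortex. The 6 others went the same way in all 3 genotypes. Every call but that of Itgb1 held in all 18 fits without 1 array. Itgb1 was lost in 12 of them, with differences of 0.0632 to 0.0843, and kept without COX-2+/+ cortex replicate 3, COX-2-/- cortex replicate 1, COX-2+/+ hippocampus replicates 2 or 3, or COX-2-/- hippocampus replicates 1 or 2. It was also lost with the replicate block (adjusted p = 0.0522), with no filter (adjusted p = 0.0571) and by its 1 probe above background alone, which differed by 0.0637 (adjusted p = 0.261).

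In the COX-1 line, where only probes of the second part could be used, limma called 7 of 26 members (all but Sparc named after their values were seen), 5 higher and 2 lower in hippocampus, against 35.1% of all features. Col6a5 had 0.562, 0.655 and 0.793 as the lowest, median and highest of 6 hippocampus arrays and -0.119, 0.253 and 0.357 of 6 cortex arrays. The regions did not overlap, and the difference was 0.487 ± 0.0658 (adjusted p = 3.41e-05). Timp4, the inhibitor found mainly in heart and brain, was also apart, with 0.561, 0.582 and 0.689 against 0.374, 0.454 and 0.505, a difference of 0.149 ± 0.0333 (adjusted p = 0.00212). Ecm1 was higher by 0.145 ± 0.0309 (adjusted p = 0.00143), Col4a2, with a mean Z of 0.0999 over these arrays, by 0.154 ± 0.0413 (adjusted p = 0.00747) and Col1a2 by 0.107 ± 0.0341 (adjusted p = 0.0213). Sparc was lower by -0.200 ± 0.0442 (adjusted p = 0.00191) and Col18a1, the precursor of endostatin, by -0.0867 ± 0.0317 (adjusted p = 0.0417). Again 1 probe carries the Col1a2 value: it rose by 0.284 below background, and the probe above background differed by -0.0708. Col1a2 was lost without COX-1+/+ hippocampus replicate 2 (0.101) or COX-1-/- hippocampus replicate 3 (0.0825). Col18a1 was lost in 8 of 12 fits without 1 array (-0.0873 to -0.0728) and kept without COX-1+/+ cortex replicate 3, COX-1-/- cortex replicate 3, COX-1+/+ hippocampus replicate 1 or COX-1-/- hippocampus replicate 2. The 5 others held in all 12.

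Markers of other cells moved with region. Ttr, the main transcript of choroid plexus, was 0.951 ± 0.289 higher in the hippocampus of the COX-2 line (adjusted p = 0.0317). It was uneven between arrays, from 0.402 to 2.36 in COX-2+/+ hippocampus and from 0.170 to 0.215 in COX-2+/+ cortex, but also as high as 1.59 in 1 COX-2+/- cortex array. It was 1 of 2 choroid plexus genes found of 11, and the mean Z of the 2 was -0.104 to 1.06 over hippocampus arrays and -0.0600 to 0.781 over cortex arrays. Of the 2 mural markers found, Acta2 was higher in hippocampus in the COX-2 and the COX-1 line (0.171 and 0.326), whereas Pdgfrb differed by 0.0212 in the COX-2 line (adjusted p = 0.509) and was lower by -0.0805 in the COX-1 line (adjusted p = 0.0442). Aldh1a2 of meningeal fibroblasts was higher in both lines (0.135 and 0.157). Of the meningeal markers tested, 2 of 4 were higher in hippocampus in the COX-2 line and 2 of 3 in the COX-1 line, with medians of 0.0169 and 0.0113. Aldoc of astrocytes was higher in the COX-2 line (0.145), where 1 of 2 astrocyte markers tested was higher. In the COX-1 line the 1 astrocyte marker tested differed by -0.0287. Nefl, the 1 neuron marker tested in the COX-1 line, was higher there (0.203, adjusted p = 0.000615). In the COX-2 line the mean of the 6 meningeal genes was 0.439 to 0.549 over hippocampus arrays and 0.399 to 0.462 over cortex arrays. Of the 4 microglial markers found, 2 were tested in the COX-2 line. Both were higher in hippocampus there, with a median difference of 0.0315, and neither was called. In the COX-1 line C1qb, C1qc and Fcer1g of microglia were lower in hippocampus, by -0.111, -0.0961 and -0.574. Fcer1g passed the filter through its cortex values, and its mean over these hippocampus arrays lay below 0, the limit of background. C1qa, the fourth microglial marker found, lay below the filter and was not tested, and its means ran the other way: -0.350 and -0.270 in COX-1+/+ and COX-1-/- cortex, and 0.00389 and -0.130 in hippocampus. The part of these cells in the members' differences was not tested.

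Over the probes of the second part, the region differences of the lines were set side by side for 25 members. In 8 the hippocampus was higher in both lines, in 8 lower in both, and in 9 the direction differed. A test of the difference between the lines, added after these values had been seen and using the wild-type and null groups of each, called 4 of 26 members by limma, against 17.3% of all features. For Sparc it was 0.273 ± 0.0627 (adjusted p = 0.00336). Over all genotypes the same probe was 0.172 higher in hippocampus in the COX-2 line and 0.200 lower in the COX-1 line. For Col6a5 it was -0.429 ± 0.0915 (adjusted p = 0.00174). Over all COX-2 genotypes Col6a5 had -0.0428, higher in hippocampus in 1 genotype and lower in 2. These COX-2 line values include COX-2+/-, which the test leaves out. They therefore do not add up to its value and can differ from the tested groups in size and sign. For Ecm1 it was -0.133 ± 0.0372 (adjusted p = 0.0133). Over all genotypes Ecm1 was 0.145 higher in hippocampus in the COX-1 line. In the COX-2 line it was 0.0425 higher and not called by limma (adjusted p = 0.160), higher in 2 genotypes and lower in 1, COX-2-/-. For Col1a2 the test between the lines gave -0.142 ± 0.0409 (adjusted p = 0.0155), from the probe below background. The 4 calls held in all 24 fits without 1 array. The Timp4 difference between the lines, -0.109 ± 0.0415, had an adjusted p of 0.0669. Pdgfrb of mural cells and Nefl of neurons were called in the same test, at 0.113 and -0.150 (adjusted p = 0.0241 and 0.0205), and their part was not tested.

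**Figure D4:**
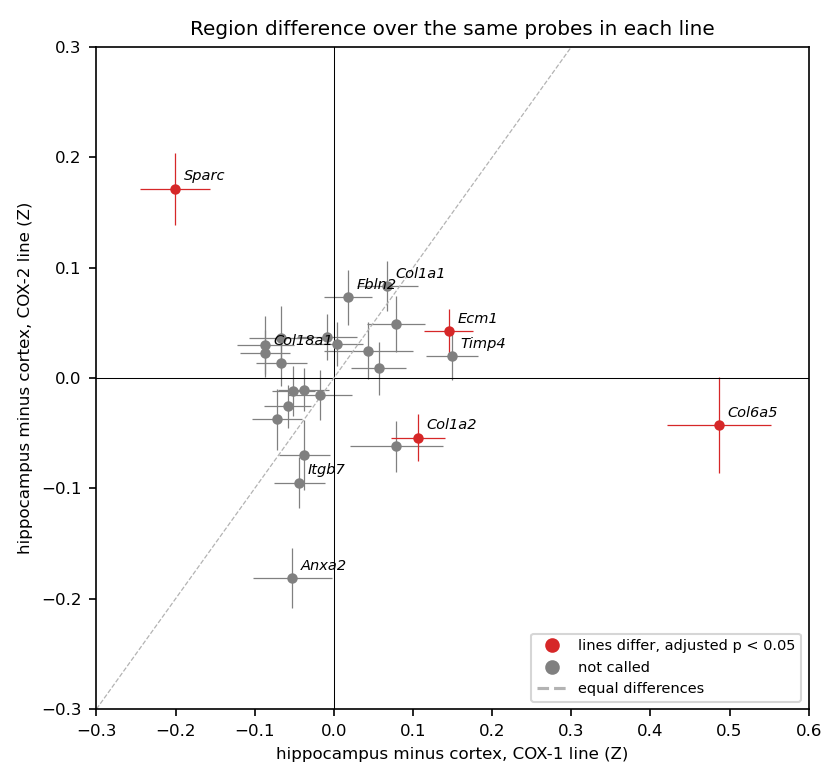
Difference in mean Z between hippocampus and cortex in the COX-1 line (x axis) and in the COX-2 line (y axis) for 25 members, over the same probes of the second part, with SE bars; the dashed line marks equal differences and red points are members whose difference between the lines was called. Sparc lies in the upper left (-0.200 and 0.172) and Col6a5 at the far right (0.487 and -0.0428). The COX-2 line values average all genotypes, COX-2+/- included, whereas the test between the lines used only wild-type and null groups.

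Other genes of the same matrix were taken from listed groups. Of 34 genes of proteoglycans and hyaluronan, 15 were found and 9 tested; of 33 other glycoproteins, 12 and 7; of 14 genes of collagen synthesis, 9 and 7; of 21 focal adhesion genes, 11 and 3; and of 10 S100 genes, 3 and 1. In COX-1-/- cortex, where only the second part could be used, fewer were found and tested: 11 and 6, 7 and 4, 6 and 5, 6 and 1, and 1 and 0 of the same groups in turn. Of those tested in the COX-1-/- and COX-2-/- groups of both regions, 0 were called by either rule. Over all features limma called 0.609% in COX-1-/- cortex, 2% in COX-1-/- hippocampus and 0% in COX-2-/- cortex and hippocampus. The study's rule called 2.63%, 4.81%, 4% and 3.75% of all features in the same order. With so few genes tested, the count of 0 is not a result about them. In the COX-2+/- hippocampus Sdc4, a cell surface proteoglycan of focal adhesions, was lower by -0.177 ± 0.0465 (adjusted p = 0.0403), with a mean of 0.982 ± 0.0887 against 1.16 ± 0.0519 (SD, n = 3 each) in COX-2+/+. Vcl, the focal adhesion protein vinculin, was higher there by the study's rule (z ratio 1.91). Between the wild-type hippocampi Sdc4 and Sdc2 were higher in COX-2+/+, by 0.159 and 0.149 (adjusted p = 0.0475 and 0.0377). Between regions, the matrix proteins Vcan and Tnc were lower in the hippocampus of the COX-2 line, by -0.0785 and -0.0943 (adjusted p = 0.0235 and 0.0264). In the COX-1 line P4ha1, a prolyl hydroxylase, was higher by 0.0938 and Serpinh1, the collagen chaperone, lower by -0.0984 (adjusted p = 0.0305 and 0.0402). For the COX-2+/- effect, hippocampus against cortex, limma called 1 of 3 focal adhesion genes, with a negative difference, against 5.36% of all features. As an exception that gene is not named here.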

How the data were processed

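Per the file headers and the study's methods, the authors read phosphoimager intensities with ArrayPro and deposited Z scores (natural log intensity, standardised per array); this score is the unit used. Both parts of the deposited values are standardised on their own. Symbols came from the platform annotation, and promoters from RefSeq (GRCm38.p6). The mean of a gene's probes was tested, probes without a single symbol singly, as group means over the 15 arrays of a region (18 or 12 arrays of a line between regions) with limma 3.58.1 in R 4.3.3, by empirical Bayes and Benjamini-Hochberg adjustment over features with mean Z above 0. The copied COX-1 cortex values were set to missing, so first-part features of cortex rest on fewer arrays than planned. The study's rule was a z ratio beyond 1.5 and a Z test P under 0.05. Its divisor here was the SD of all differences of a comparison, copied rows left out; the stated formula names the SD of the genes on an array, 1 for Z scores, which was added as an alternative after the data were seen. Scripts were tested on simulated data. Data were handled with the R package data.table (1.17.8), pandas 2.3.3 and numpy 2.4.6, and figures drawn with matplotlib 3.10.9 in Python 3.11.15. No depth applies to arrays: their number, 3 a group, limits precision.

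The members, lists, tests and alternatives were chosen with earlier results of these data known. Named were members called against wild type, the 2 highest and 2 lowest differences there, up to 5 by adjusted p between wild types, members called between regions in the COX-2 line or in both lines, members with called probes of opposite sign, and called partner genes; exceptions are marked. Alternatives were probes taken singly, median centring, quantiles, either no filter or one at a mean Z of 0.5, row order correction (running medians of 201 rows), a z ratio beyond 2, adjusted Z test P, controls from both lines, the compared groups only, an intensity trend, a replicate block and leaving out each array.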

Additional observations from a re-analysis of the deposited data

Results flagged for a closer look

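The effect of COX-2-/- differed between hippocampus and cortex for Itga9 (-0.428 ± 0.104, adjusted p = 0.0370 by limma) and Ecm1 (-0.206 ± 0.0520, adjusted p = 0.0416). Itga9 was higher than wild type on average in cortex, with overlapping arrays, and lower in hippocampus in 3 of 3 arrays. Ecm1 was higher in 3 of 3 cortex arrays and lower in 3 of 3 hippocampus arrays. These counts restate the values that gave the calls and add no support to them. Each call was lost in 8 of 12 fits that left out 1 array, and in other alternatives Itga9 was lost in 2 of 7 and Ecm1 in 4 of 8.

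The effect of COX-1-/- differed between the regions for Itgb7 (0.284 ± 0.0639, adjusted p = 0.0495), and that of COX-2+/- for Col6a5 (-0.409 ± 0.115, adjusted p = 0.0418). These tests were added after the values were seen. Itgb7 was lower in 3 of 3 COX-1-/- cortex arrays and higher in 3 of 3 COX-1-/- hippocampus arrays, which restates the values that gave its call. Both calls were lost in 9 of 12 fits that left out 1 array, and in other alternatives Itgb7 was lost in 6 of 8 and Col6a5 in 3 of 7.

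The region difference itself differed between the lines, in a test also added later, for Col6a5 (-0.429 ± 0.0915, adjusted p = 0.00174), Sparc (0.273 ± 0.0627, adjusted p = 0.00336), Ecm1 (-0.133 ± 0.0372, adjusted p = 0.0133) and Col1a2 (-0.142 ± 0.0409, adjusted p = 0.0155). For Col1a2 the probe above background gave 0.0130 and the probe below background -0.298.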

How the results depend on the processing

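The 37 results for called members were recomputed in 762 alternatives; 587 kept direction and call, 173 lost the call and 2 reversed, both for Col1a2 with probes taken singly (-0.0708 between regions of the COX-1 line and 0.0130 between the lines). Counts of called members are given by comparison. The share of all features called was not computed for the alternatives. The counts therefore show how calls depend on a setting and are not a result about the members. With no filter all 67 members are tested, or 47 where COX-1 cortex is compared.

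With a mean Z above 0.5 they were, by the study's rule, 1 in COX-1-/- cortex, 0 in COX-2-/- cortex, 0 in COX-2-/- hippocampus and 1 in COX-2+/- hippocampus. By limma they were 1 in COX-2+/- hippocampus, 1 between wild-type hippocampi, 4 between regions of the COX-1 line, 0 for the COX-2-/- effect between regions, 0 for the COX-2+/- effect between regions and 2 for the region difference between lines. With no filter the rule called 3 in COX-2-/- cortex, 1 in COX-2+/- cortex, 4 members in COX-1-/- hippocampus, 2 in COX-2-/- hippocampus and 7 in COX-2+/- hippocampus, and limma 0 between wild-type cortices, 0 in COX-2+/- hippocampus, 14 between regions of the COX-1 line, 0 for the COX-2-/- and 0 for the COX-1-/- effect between regions, and 7 for the region difference between lines; here more features are tested.

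With row order corrected the rule called 0 in COX-1-/- cortex, 0 in COX-2-/- cortex and 1 in COX-2+/- cortex, and limma 1 in COX-2+/- hippocampus, 0 for the COX-2-/- effect, 0 for the COX-1-/- effect, 3 for the COX-2+/- effect and 7 for the region difference between lines. With medians centred the rule called 0 in COX-2-/- cortex and 2 in COX-2-/- hippocampus, and limma 0 between wild-type cortices, 1 in COX-2+/- hippocampus, 0 for the COX-1-/- and 0 for the COX-2+/- effect, and 7 for the region difference between lines. With each probe singly the rule called 2 in COX-2-/- cortex, 1 in COX-2+/- cortex, 2 in COX-2-/- hippocampus and 4 in COX-2+/- hippocampus, and limma 2 between wild-type cortices, 0 for the COX-1-/- effect and 3 for the COX-2+/- effect. Quantile normalization gave 0 for the COX-2+/- effect and the intensity trend 0 for the COX-1-/- effect.

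By the rule, a z ratio beyond 2 gave 1 in COX-1-/- cortex and 0 in COX-2+/- hippocampus. An adjusted Z test P gave 0 in COX-1-/- cortex, 0 in COX-2-/- cortex and 1 in COX-2+/- hippocampus. The SD over the whole table, copied values included, gave 4 in COX-1-/- cortex. Pooling the wild types of the lines gave 3 members in COX-2-/- cortex, 1 in COX-2+/- cortex and, in hippocampus, 4 for COX-1-/-. With this pooling Anxa2 and Col1a1 in COX-1-/- cortex lost their calls. Itga9 in COX-2-/- hippocampus and Adam10 in COX-2+/- hippocampus lost theirs too. The second part of the table alone, added after the data were seen, gave 0 in COX-2-/- cortex, 1 in COX-2+/- cortex and 0 in COX-2-/- hippocampus, fewer probes being used. A z ratio with a divisor of 1, also added after the data were seen, gave 0 in all 6 comparisons with wild type: 0 in COX-1-/- cortex, 0 in COX-2-/- cortex, 0 in COX-2-/- hippocampus and 0 in COX-2+/- hippocampus, where members had been called.

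Same-numbered arrays did not clearly pair (correlation of deviations -0.0302 to 0.181). With the replicate number as a block, limma called 1 member in COX-1-/- hippocampus, 4 in COX-2+/- hippocampus, 1 for the COX-2-/- effect and 0 for the COX-1-/- effect, and other counts stayed within 1.5 times. Of single members, Itgb1 between regions of the COX-2 line (adjusted p = 0.0522), Ecm1 for the COX-2-/- effect (0.0658) and Itgb7 for the COX-1-/- effect (0.0897) lost their calls with the block.

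Without each array in turn the rule called 0 to 2 in COX-1-/- cortex, 0 to 1 in COX-2-/- cortex, 0 to 2 in COX-2+/- cortex, 0 to 1 in COX-1-/- hippocampus, 0 to 1 in COX-2-/- hippocampus and 0 to 3 in COX-2+/- hippocampus. limma called 0 to 1 in COX-1-/- cortex, 0 to 1 between wild-type cortices, 0 to 1 in COX-1-/- hippocampus, 0 to 1 in COX-2-/- hippocampus, 0 to 1 in COX-2+/- hippocampus, 2 to 4 between wild-type hippocampi, 0 to 3 for the COX-2-/- effect, 0 to 1 for the COX-1-/- and 0 to 1 for the COX-2+/- effect, and 4 to 7 for the region difference between lines. The cause of these changes was not tested. The fit of the compared groups alone equals the one reported for comparisons between regions and was not run for them.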
